A study of Mus musculus with 13 samples.

Results

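A set of 10 genes with no usual place among the targets of p53, namely D630023F18Rik, Myod1, Lhx3, Ankrd65, Gm648, Igfals, Ccdc88b, 9930012K11Rik, Fam167a and Lctl, was followed through the hours after γ-irradiation of mouse oocytes. They are 10 of the 49585 genes to which the quantified transcripts belong, and they were selected on their RNA levels at 0.5 Gy. Among genes not known as p53 targets, they were picked for a steep rise from the early libraries (0 and 1 h) to the late ones (2.5, 4 and 6 h). The rise of the 10 therefore is given here as a description with no test. Many genes outside the set, known p53 targets among them, rose more steeply than Fam167a, its lowest member. None of the 10 was in a published list of genes directly regulated by p53 in mouse fibroblasts, which is no result of its own because known p53 targets were left out in the choice. The libraries of 0.2 Gy and the promoters and neighbours of the genes had no part in the choice. The steps from 0 to 1 h and from 4 to 6 h were not contrasted in it. Their values nevertheless come in part from libraries of 0.5 Gy that the choice did use. All of these, and the transcripts of the genes, are described with the tests that the design allows. These tests take their spread in part from libraries of 0.5 Gy that the choice did use.

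Oocytes waiting in primordial follicles carry TAp63α, a relative of p53 that is held in an inactive dimeric form. DNA damage leads to its phosphorylation by the kinases CHK2 and CK1 and to the formation of active tetramers, which bind the same kind of DNA element as p53. Known targets of this pathway include Mdm2, the ubiquitin ligase that restrains p53, Cdkn1a, the cell cycle inhibitor p21, Ccng1, a cyclin of the p53 response, and Eda2r, a death receptor of the TNF receptor family, and these were used for scale. The 10 genes have other known roles or none: Myod1 and Lhx3 encode transcription factors of skeletal muscle and of the pituitary and motor neurons, Igfals and Lctl encode a secreted and a membrane protein, Ccdc88b, Fam167a and Ankrd65 encode proteins of the cell interior, and D630023F18Rik, Gm648 and 9930012K11Rik are little-characterised protein-coding genes.

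RNA-seq libraries came from oocytes of P5 CD-1 mice. Their ovaries were removed, cultured overnight in a medium with serum and N-acetyl-L-cysteine, and γ-irradiated in culture with a 137Cs source. At each time they were treated with trypsin to free the oocytes from follicular cells, with 4 ovaries per time point. At 0.5 Gy there were 2 libraries at 0, 1 and 4 h (first and second generation of samples) and 1 library each at 2.5 and 6 h, 8 in all. At 0.2 Gy there was 1 library at each of the 5 times, all from the third generation, so dose and generation cannot be told apart. The records of the series disagree on which 1 h and which 4 h library of 0.5 Gy belongs to which generation, and the labels were followed. The 0 h libraries were made before irradiation. No genotype or drug differed between the groups. The spread between libraries is that between pools of ovaries and, at 0.5 Gy, also between generations. Where times are pooled as early or late, it also holds the change between those times.

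The 13 libraries held between 15709549 (0.5 Gy, 0 h, replicate 2) and 30430104 estimated reads. Levels are given as CPM, the reads scaled to a common library size by TMM, and levels of different genes are compared only as TPM, which also take transcript length into account. Marker genes of oocytes summed to between 3244 and 5342 CPM and those of granulosa cells to between 1108 and 2162 CPM in every library, so transcripts typical of granulosa cells were measured beside those of oocytes. In such bulk samples fewer cells of a type and less RNA per cell cannot be told apart. The 0 and 1 h libraries of 0.2 Gy detected 42402 and 42612 genes, against 35827 to 39035 in the other 11.

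At 0.5 Gy all 10 genes had late libraries above every early one, and 9 of them were among the 29 genes called higher by edgeR's quasi-likelihood test (adjusted p under 0.05 and a log2 fold change above 1), which were 0.128% of the 22588 genes tested. This count is fixed by the choice of the genes. Without 0 h replicate 1, 0 h replicate 2, 2.5 h, 4 h replicate 2 or 6 h the 29 became 10, 12, 14, 10 and 10, and with any library but 4 h replicate 1 left out 3 to 5 of the 10 were called (8 without that one). Non-overlap of the 4 late and 4 early libraries was found in 3.18% of all genes tested. The fitted log2 fold changes reached from 1.46 for Fam167a, the one gene not called, to 6.28 for D630023F18Rik, and the first 6 places by fold change among the 29 were held by D630023F18Rik, Myod1, Lhx3, Ankrd65, Gm648 and Igfals. Between Igfals and Lctl, beside Ccdc88b and 9930012K11Rik, stood Pmaip1, Cdkn1a, Eda2r, the antisense gene Gm43301 and Fermt1, which are not among the 10. Lctl, at 2.78, was the lowest of the 9, and Phlda3, a known p53 target at 2.72, was the next gene below it. Of the called genes outside the 10, Tmem140 (2.30), Acp4 (1.82) and Mob3a (1.75) also had larger values than Fam167a. For scale, the values were 3.32 for Cdkn1a, 3.21 for Eda2r, 2.63 for Mdm2 and 1.95 for Ccng1.

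**Figure D1:**
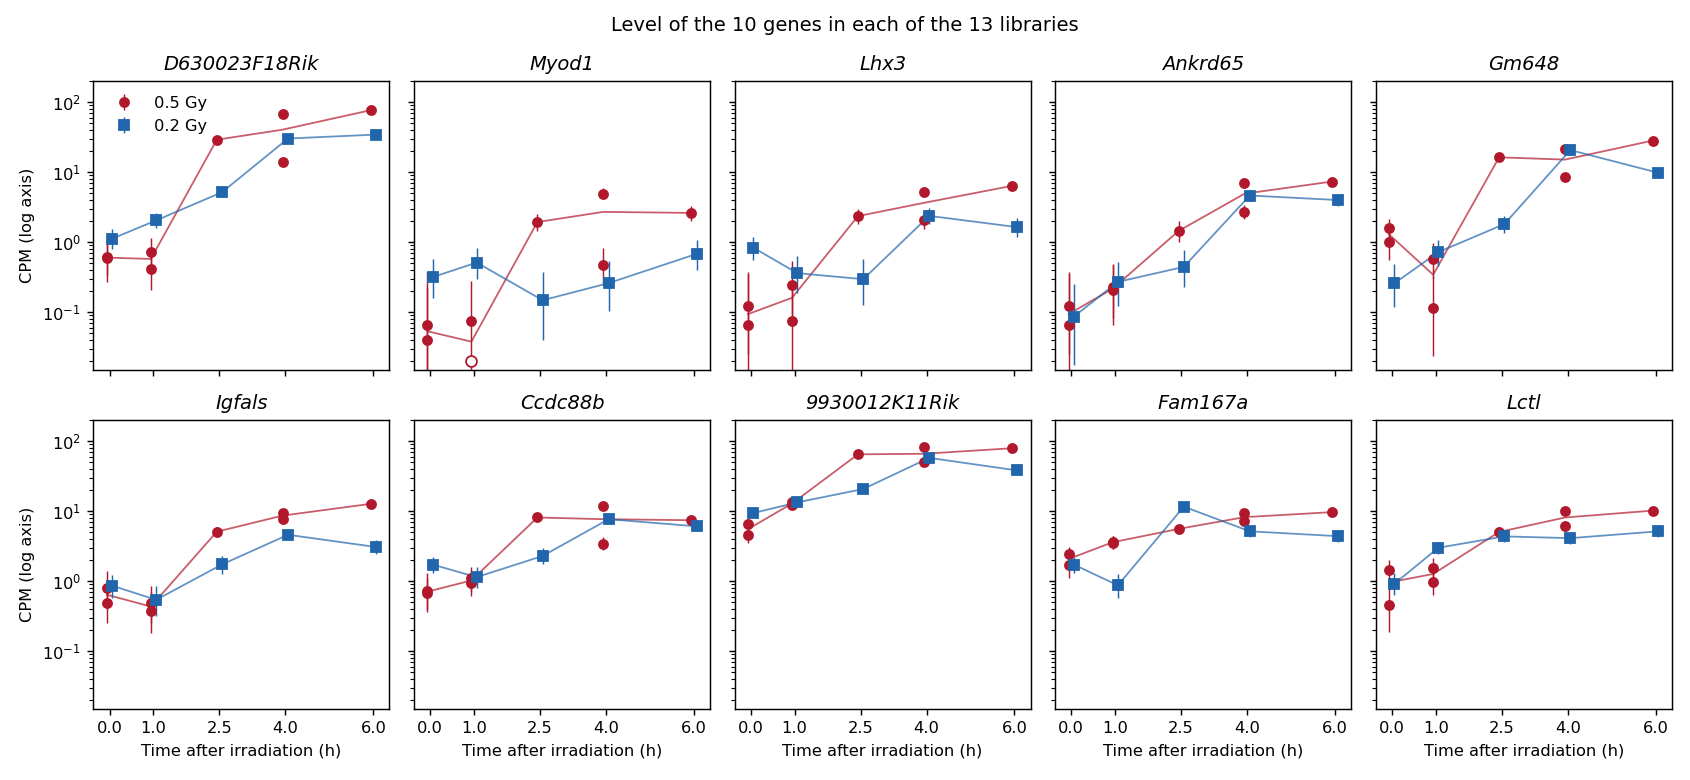
Level of each of the 10 genes in the 13 libraries, in CPM on a log axis, against the time after irradiation in h. Red circles are 0.5 Gy and blue squares 0.2 Gy, bars are exact 95% Poisson intervals of the reads, and lines join the means per time. The open circle marks the 1 h library of Myod1 with 0 reads, drawn at the foot of the axis. At 0.5 Gy the 2.5 h circle lies above the early ones for each gene, as the choice of the genes favours, with the smallest gap in Fam167a. Most blue squares at 2.5 h lie under the red circles.

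The steepest gene was D630023F18Rik (chr1:65105285-65123214, minus strand, GRCm38), a protein-coding RIKEN gene next to the crystallin gene Cryga. At 0.5 Gy the 0 h pair of libraries read 0.606 and 0.595 CPM, the 1 h pair 0.733 and 0.417 CPM, the 2.5 h library 29.0 CPM, the 4 h pair 14 and 66.9 CPM and the 6 h library 76.6 CPM. The early libraries thus lay within a narrow band of 0.588 ± 0.130 CPM (SD, n = 4), whereas the late ones spread over 46.6 ± 29.9 CPM (SD, n = 4) without touching it. Both SDs pool times and generations, so they are not the spread between replicates alone. Scaled for depth, the summed late reads stood 80.1 times above the early ones, with an exact interval of 61.2 to 107 that covers counting error only. At 0.2 Gy the levels over the 5 times were 1.12, 2.04, 5.17, 30.2 and 34.4 CPM, again without overlap of early and late libraries. Of the 30-base sequences of its transcripts 13.2% also occur in Gm28845, which overlaps it on the same strand, so reads of that stretch cannot be given to either gene for certain.

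The promoter window of D630023F18Rik, from 250 bases before to 50 bases after the start in RefSeq (GRCm38.p6, chr1:65123165-65123464, minus strand), is shown because this gene was the one called at both doses and the window holds a match to the consensus half-site of the p53 family. The capitals mark the match, which begins 119 bases before the start.

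D630023F18Rik promoter: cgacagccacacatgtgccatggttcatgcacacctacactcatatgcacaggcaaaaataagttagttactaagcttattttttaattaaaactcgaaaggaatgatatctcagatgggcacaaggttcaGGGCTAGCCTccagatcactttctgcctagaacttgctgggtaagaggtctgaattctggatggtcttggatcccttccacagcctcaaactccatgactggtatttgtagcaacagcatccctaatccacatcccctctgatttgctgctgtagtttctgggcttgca

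Of the 10 genes, 7 had promoter windows in the RefSeq table (10 windows in all), and 2 of these windows, that of D630023F18Rik and one of Lhx3, held the half-site. Among all 32851 promoter windows of this length 8.36% held it. The consensus pattern, with its alternative bases, is its own reverse complement, so 1 search covered both strands, although a single match need not read the same on both.

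Of the transcription factor genes, Myod1, the master regulator of skeletal muscle differentiation (chr7:46376474-46379099, plus strand), rested on the fewest reads. Its 0 h pair of 0.5 Gy held 1 and 1 reads and its 1 h pair 0 and 2 reads, while the 2.5 h library held 51 reads, the 4 h pair 12 and 128 reads and the 6 h library 69 reads. The late levels were 1.93 CPM for 2.5 h, 0.466 and 4.94 CPM for the 4 h pair and 2.61 CPM for 6 h, so the 4 h replicates differed by a factor of 10.6. The ratio of late to early reads, scaled for depth, was 56.5 with a wide exact interval of 21.8 to 209, because only 4 early reads stand behind it. At 0.2 Gy the values had no such step: over the 5 times they were 0.316, 0.510, 0.148, 0.259 and 0.678 CPM, from 4 to 17 reads each, and early and late libraries overlapped. Both early libraries of 0.2 Gy lay above all 4 early libraries of 0.5 Gy.

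Lhx3, the LIM homeodomain factor needed for pituitary development (chr2:26200212-26208289, minus strand), had 0.121 and 0.0661 CPM in the 0 h pair and 0.244 and 0.0757 CPM in the 1 h pair of 0.5 Gy. Its 2.5 h library there read 2.35 CPM, its 4 h pair 2.06 and 5.21 CPM and its 6 h library 6.36 CPM, so that the lowest late library stood 8.43 times above the highest early one. At 0.2 Gy it stood at 0.833 CPM before irradiation, higher than in any early library of 0.5 Gy, and over the following times read 0.360, 0.295, 2.37 and 1.64 CPM. The 2.5 h library of 0.2 Gy, which for most of the 10 genes was above the early ones, was below both of them here.

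The reads of Lhx3 were not spread evenly over its annotated transcripts. In the 7 late libraries of both doses, between 73.3% and 100% of the TPM of the gene (median 83.2%) went to Lhx3-203, a transcript annotated as a retained intron, which starts inside the gene and keeps 365 bases of an intron (chr2:26202502-26202866) in front of the last 3 exons of the coding transcripts. The coding transcripts Lhx3-201 and Lhx3-202 had a median share of 0% each, with highest shares of 22.1% and 26.7%. The late library at 100% was that of 2.5 h at 0.2 Gy, with 8 reads of the gene. By mean TPM, Lhx3-203 had 100% in the early libraries of 0.5 Gy (12.5 estimated reads) and 88.0% in the late ones. At 0.2 Gy it had 39.9% early and 80.0% late, so its lead was not particular to the late libraries of 0.5 Gy. Only 18.6% of the 30-base sequences of Lhx3-203 are particular to it among the transcripts of the gene, since the rest of it is shared with the ends of the coding ones. A stretch of the kept intron (chr2:26202641-26202700, minus strand) is shown because reads on such sequence set this transcript apart, followed by the promoter window of the second RefSeq start of Lhx3 (chr2:26206526-26206825, minus strand), with the half-site in capitals 239 bases before that start.

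Lhx3-203 kept intron: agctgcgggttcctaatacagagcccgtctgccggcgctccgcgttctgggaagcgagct

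Lhx3 promoter, second start: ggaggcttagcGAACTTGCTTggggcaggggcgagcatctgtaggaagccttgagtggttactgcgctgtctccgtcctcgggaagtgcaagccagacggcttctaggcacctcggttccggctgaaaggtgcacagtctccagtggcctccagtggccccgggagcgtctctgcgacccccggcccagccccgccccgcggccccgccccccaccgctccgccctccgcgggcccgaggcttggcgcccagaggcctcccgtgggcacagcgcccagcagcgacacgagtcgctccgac

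The start of Lhx3-203 lies downstream of both RefSeq promoter windows of the gene. The antisense gene Gm27196 shares 5.28% of the 30-base sequences of Lhx3, but it lies at the other end of the gene (chr2:26206702-26209283) and does not reach Lhx3-203. Salmon divides shared reads between transcripts by estimation, so a share of TPM is an estimate and not a count of reads on the intron.

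Igfals encodes the acid-labile subunit, a liver protein that keeps insulin-like growth factors in the blood (chr17:24865997-24882010, plus strand). At 0.5 Gy its 0 h pair read 0.485 and 0.793 CPM, its 1 h pair 0.489 and 0.379 CPM, its 2.5 h library 5.08 CPM, its 4 h pair 9.52 and 7.76 CPM and its 6 h library 12.7 CPM. It was the one gene of the 10 whose first 4 h library was the higher of the pair. At 0.2 Gy it had 0.861 and 0.540 CPM early, 1.73 CPM at 2.5 h, and 4.59 and 3.07 CPM late, without overlap.

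Lctl, a member of the klotho family known from the lens (chr9:64117147-64138118, plus strand), ranged from 0.463 to 1.55 CPM in the early libraries of 0.5 Gy and from 5.04 CPM at 2.5 h to 10.2 CPM at 6 h in the late ones. At 0.2 Gy it was at 0.919 CPM at 0 h, already at 3.0 CPM at 1 h, and then at 4.35, 4.11 and 5.15 CPM at 2.5, 4 and 6 h. The gap between the lowest late and the highest early library of 0.2 Gy was therefore 1.37-fold, the smallest among the 9 genes whose libraries did not overlap there. It overlaps Zwilch on the other strand, with which it shares 8.65% of its 30-base sequences, and whether counting used the strand is not given in the sources used here. Zwilch itself had a log2 fold change of 0.11 at 0.5 Gy and 0.13 at 0.2 Gy, neither called.

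Ccdc88b, a hook-related protein of lymphoid and myeloid cells (chr19:6844623-6858211, minus strand), had 0.687 to 1.10 CPM in the early libraries of 0.5 Gy. Its 2.5 h library read 8.11 CPM, its 4 h pair 3.42 and 11.9 CPM and its 6 h library 7.41 CPM, so its 2.5 h level was 108% of the mean of its 4 and 6 h levels, the highest of the 10 at this dose. Leukocyte markers summed to 34.0 to 38.3 CPM in the late libraries of 0.5 Gy and to 21.6 to 407 CPM in the early ones, and their part in the Ccdc88b values was not tested. At 0.2 Gy the gene went from 1.72 and 1.14 CPM through 2.29 CPM at 2.5 h to 7.67 and 6.06 CPM.

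Ankrd65, which encodes a protein with ankyrin repeats (chr4:155790439-155799503, plus strand), followed the slowest course. Its early libraries of 0.5 Gy held 1 to 6 reads each, or 0.0661 to 0.227 CPM, its 2.5 h library 1.44 CPM, its 4 h libraries 2.72 and 7.10 CPM and its 6 h library 7.34 CPM. At 0.2 Gy the levels over the 5 times were 0.0861, 0.270, 0.443, 4.63 and 3.99 CPM. The 2.5 h level was thus 23.5% of the mean of 4 and 6 h at 0.5 Gy and 10.3% at 0.2 Gy, the lowest of the 10 genes at both doses. Both coding transcripts carried it in about equal parts, with median shares of 47.5% for Ankrd65-201 and 52.5% for Ankrd65-202 of its TPM in the 7 late libraries.

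Fam167a, a neighbour of the kinase gene Blk (chr14:63436394-63465498, plus strand), differed from the other 9. At 0.5 Gy it had the smallest separation, from 1.72 to 3.62 CPM in the early libraries to 5.57 CPM in the 2.5 h library, 7.11 and 9.30 CPM in the 4 h pair and 9.68 CPM in the 6 h library. At 0.2 Gy it stood at 1.72 and 0.870 CPM at 0 and 1 h, at 11.6 CPM at 2.5 h, from 314 reads, and back at 5.15 and 4.39 CPM at 4 and 6 h. The 2.5 h library of 0.2 Gy thus gave its highest level in all 13 libraries, 208% of that of 0.5 Gy at the same time, and it is a single library without a replicate.

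Gm648 lies on the X chromosome (chrX:56543874-56549606, minus strand). Its early libraries of 0.5 Gy spread widely, from 0.114 CPM in a 1 h library (3 reads) to 1.58 CPM in a 0 h library (39 reads), with 0.991 and 0.570 CPM in the other two. Its 2.5 h library had 16.3 CPM, its 4 h pair 8.55 and 21.6 CPM and its 6 h library 28.3 CPM. At 0.2 Gy it went from 0.258 and 0.720 CPM through 1.81 CPM at 2.5 h to 20.6 and 9.77 CPM. Its 4 h library of 0.2 Gy stood at 137% of the mean of the 4 h libraries of 0.5 Gy, between the pair of them. The nearby gene Gm10477, which shares 3.76% of the 30-base sequences of Gm648, had a log2 fold change of 3.62 at 0.2 Gy (SE 1.18), not called, and was below the filter on low counts at 0.5 Gy.

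9930012K11Rik (chr14:70154405-70159502, minus strand) was the most abundant of the 10 per length, with 32.2 TPM at 6 h of 0.5 Gy, against 18.3 TPM for D630023F18Rik, 11.4 TPM for Gm648 and 0.562 TPM for Ccdc88b, the lowest, in the same library. At 0.5 Gy the 0 h pair read 6.58 and 4.49 CPM, the 1 h pair 13.3 and 12.4 CPM, the 2.5 h library 64.8 CPM, the 4 h pair 50.4 and 81.6 CPM and the 6 h library 79.1 CPM. At 0.2 Gy the levels over the 5 times were 9.39, 13.3, 20.7, 57.7 and 38.1 CPM. The 1 h libraries lay above the 0 h libraries at both doses.

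The largest share of its TPM in the late libraries, 46.9% to 63.4% (median 61.1%), went to 9930012K11Rik-202, annotated as a target of nonsense-mediated decay, whereas the coding transcripts 9930012K11Rik-201 and 9930012K11Rik-205 had medians of 14.6% and 18.5%. Only 27 of the 30-base sequences of 9930012K11Rik-201 and 0 of those of 9930012K11Rik-205 are particular to them, so the split between these coding transcripts is poorly set. In the early libraries of 0.5 Gy 9930012K11Rik-202 had 43.7% of the TPM of the gene. By reads, which do not take length into account, the order was another: in the late libraries of 0.5 Gy the 538 bases of 9930012K11Rik-202 held 21.4% of the reads of the gene, against 31.9% for 9930012K11Rik-201 and 39.9% for 9930012K11Rik-205. It skips an exon of 116 bases (chr14:70156161-70156276) and only 26 of its 30-base sequences, those across the new junction, are particular to it. The 30 bases across that junction (chr14:70155944-70156432, minus strand, with the skipped part left out) are shown because the estimate for this transcript turns on them, and the capitals mark the exon after the junction.

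9930012K11Rik-202 junction: ccagacaaaggacccagCAGGATCTCTCCC

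**Figure D2:**
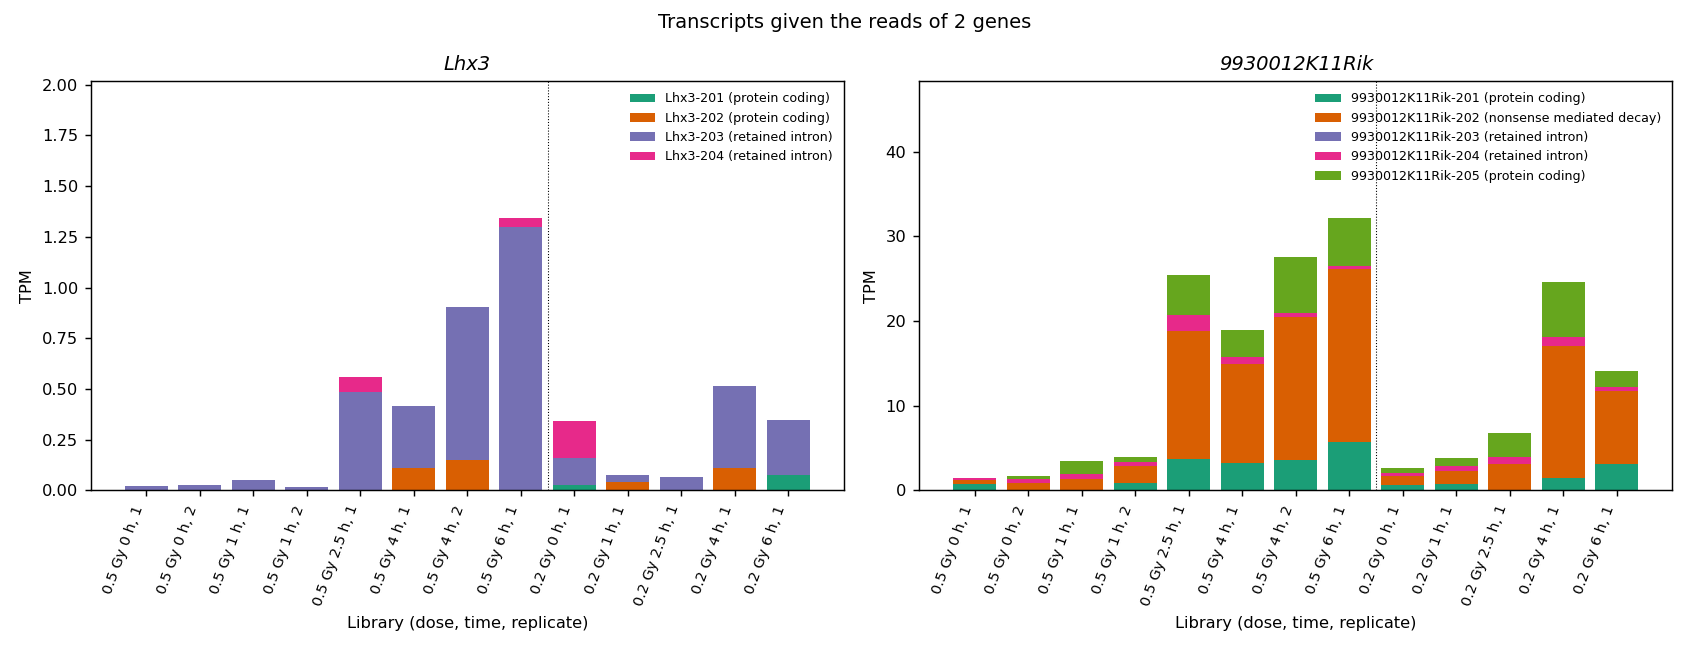
TPM of the annotated transcripts of Lhx3 (left) and 9930012K11Rik (right), stacked for each of the 13 libraries, with 0.5 Gy left and 0.2 Gy right of the dotted line. Lhx3-203, the retained intron, makes up most of each late bar of Lhx3, and 9930012K11Rik-202 takes 46.9% to 63.4% of each late bar of 9930012K11Rik.

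The other genes gave a plainer picture. Myod1, Gm648, Igfals and Ccdc88b have 1 quantified transcript each, Lctl-202, a coding transcript, took 72.3% to 90.8% of the TPM of Lctl in the late libraries, and the coding transcripts D630023F18Rik-201 and D630023F18Rik-202 had median shares of 48.1% and 42.6%.

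The main question that the choice of the genes left free was whether they also changed after the lower dose. Of the 10 genes, D630023F18Rik rose at 0.2 Gy, with a log2 fold change of 4.32 (SE 0.66) from the early (0 and 1 h) to the late (4 and 6 h) libraries and an adjusted p of 0.0478 in edgeR's quasi-likelihood test. It was 1 of 10 genes called higher among 28162 tested (0.0355%). All 10 of the late-rising genes passed the filter on low counts, which took both doses into account. The test rests on 1 library per time and takes its spread from 11 libraries of both doses. Those of 0.5 Gy had served to choose the genes, so the p-values of the 10 at 0.2 Gy are not fully independent of the choice. The call stood at its threshold: leaving out the first 4 h library of 0.5 Gy kept it, but leaving out any other of the 11 libraries ended it, with adjusted p from 0.0564 to 0.552 and log2 fold changes from 4.00 to 4.82.

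For the other 9 genes the values at 0.2 Gy did not pass. All 10 fold changes were above 0, as were 47.7% of those of all genes tested. Ankrd65 had a log2 fold change of 4.54 (SE 0.73, adjusted p = 0.0639) and Gm648 one of 4.92 (SE 0.95, adjusted p = 0.140) in edgeR's test, beside 4.80 and 4.50 at 0.5 Gy. Igfals (2.41, SE 0.51), Ccdc88b (2.23, SE 0.56), 9930012K11Rik (2.05, SE 0.45), Fam167a (1.84, SE 0.49), Lhx3 (1.71, SE 0.69) and Lctl (1.21, SE 0.61) followed, with adjusted p between 0.227 and 0.708. Myod1, second of the 10 at 0.5 Gy, had 0.15 with an SE of 0.95 (adjusted p = 0.984), and its sign turned when the 0 h or the 6 h library of 0.2 Gy was left out (-0.10 and -0.68).

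Counted without adjustment, 8 of the 10 genes were higher with a p under 0.05, all but Lctl and Myod1, against 3.03% of all genes tested. The spread behind these p-values also came in part from the libraries that chose the genes. Late and early libraries of 0.2 Gy did not overlap for 9 of the 10 genes, all but Myod1, against 21.8% of all genes. The median log2 fold change of the 10 was 2.14, and that of all genes tested was -0.03. With DESeq2 in place of edgeR, 7 of the 10 genes were called, namely D630023F18Rik, Ankrd65, Gm648, Igfals, Ccdc88b, 9930012K11Rik and Fam167a, among 147 genes called in all. With edgeR on protein-coding genes only, on the 4 libraries of 0.2 Gy alone, with 2.5 h counted as late, or with the replicate numbers crossed as a block, none of the 10 was called, and the adjusted p of D630023F18Rik was 0.0563, 0.0868, 0.203 and 0.0874. For known targets edgeR gave values of the same sign: the log2 fold changes were 2.13 for Mdm2 (SE 0.34), 1.88 for Eda2r (SE 0.46), 1.45 for Cdkn1a (SE 0.52) and 1.30 for Ccng1 (SE 0.29), and none of these was called.

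Some other quantities moved with this comparison. The sum of granulosa cell markers was 1347 to 1842 CPM in the early and 1557 to 2162 CPM in the late libraries of 0.2 Gy, and 2 of the 10 markers (Foxl2 and Fst) were higher at an unadjusted p under 0.05. Red blood cell markers (2158 to 2171 CPM early, 2721 to 4181 CPM late), oocyte markers (3244 to 4000 and 4316 to 4853 CPM) and endothelial markers (81.1 to 94.9 and 97.8 to 99.3 CPM) were higher in the late libraries of 0.2 Gy without overlap. Skeletal muscle and pituitary markers were lower there without overlap, while granulosa cell, stroma and theca, and leukocyte markers overlapped, and no gene of these lists was called. More genes were detected in the early libraries of 0.2 Gy than in any other, and both of them lay above all early libraries of 0.5 Gy for D630023F18Rik, Myod1, Lhx3 and Ccdc88b, as they did for 16.8% of all genes. The part of these differences in the fold changes was not tested.

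**Figure D3:**
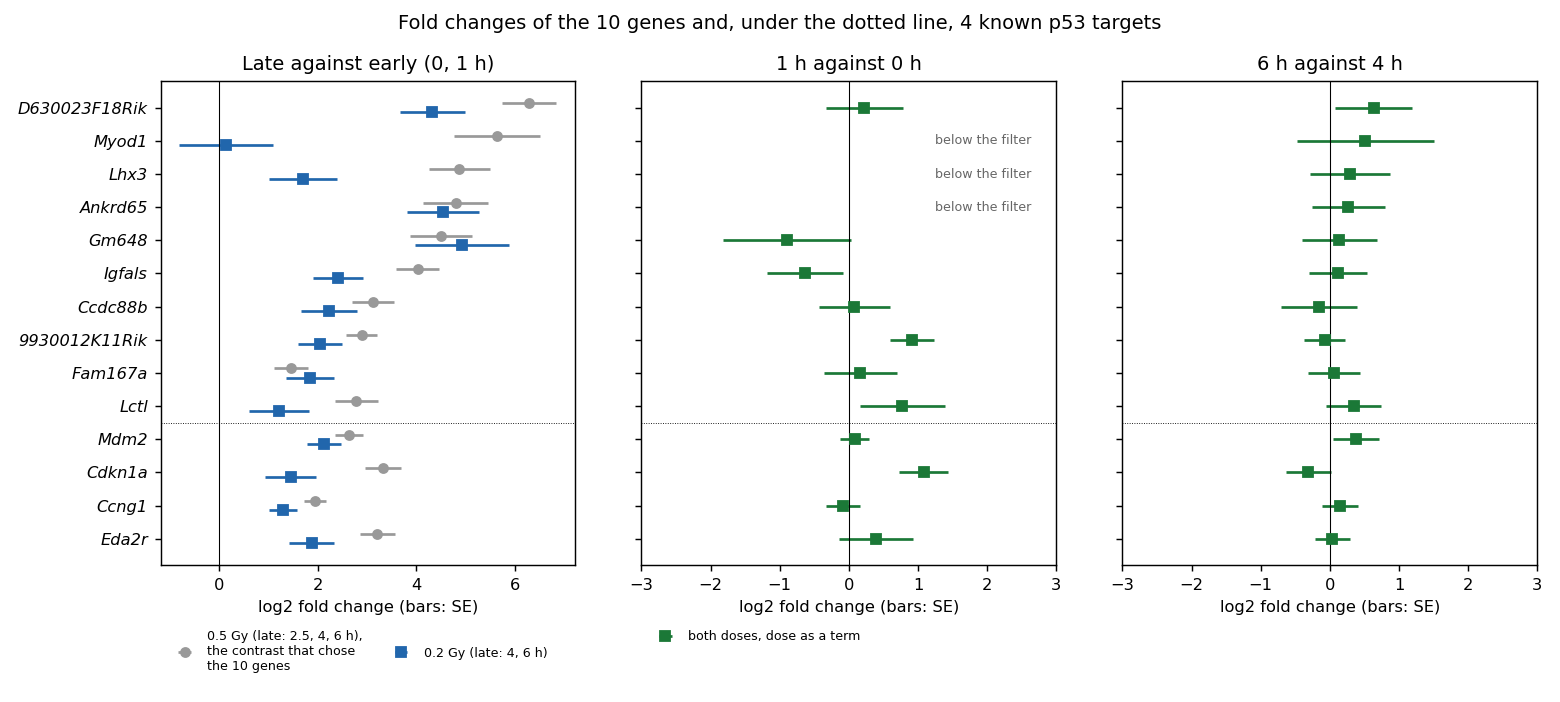
Fitted log2 fold changes with their SE for the 10 genes and, under the dotted line, Mdm2, Cdkn1a, Ccng1 and Eda2r. Left, late against early at 0.2 Gy (blue) beside the values of 0.5 Gy that chose the 10 genes (grey); middle, 1 h against 0 h; right, 6 h against 4 h, both over both doses. Myod1 is near 0 at 0.2 Gy, and in the right panel the 10 genes lie between -0.15 and 0.64.

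Whether the genes had begun to move at 1 h was asked with the 6 libraries of 0 and 1 h of both doses. None of the 24501 genes tested was called by edgeR (700 had an unadjusted p under 0.05, and DESeq2 called 15, none of them one of the 10). Of the 10 genes 7 passed the filter, while Myod1, Lhx3 and Ankrd65 had too few reads to be tested. 9930012K11Rik had the highest value, a log2 fold change of 0.92 (SE 0.32), with an unadjusted p of 0.0194 and an adjusted p of 1.00 in edgeR. It was the one gene of the 7 under an unadjusted 0.05, against 1.26% of all genes in that direction, and it was higher at 1 h than at 0 h in each of the 3 generations of samples. Cdkn1a, at 1.08 (SE 0.35), had the same direction and was not called either. The other 6 genes lay between -0.89 for Gm648 and 0.77 for Lctl.

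The level at 2.5 h was then read as a share of the later level. At 0.5 Gy, where 2.5 h belongs to the libraries that chose the genes, the 2.5 h level was 23.5% (Ankrd65) to 108% (Ccdc88b) of the mean of 4 and 6 h, with a median of 58.7%. At 0.2 Gy, where it was not used, the shares went from 10.3% (Ankrd65) to 243% (Fam167a), with a median of 32.4%. D630023F18Rik was at 49.6% and 16.0%, Gm648 at 75.1% and 11.9%, and Lhx3 at 47.1% and 14.7% at the higher and the lower dose. Fam167a (62.3% and 243%) and Lctl (55.2% and 94.1%) had the larger share at the lower dose. Each share of 0.2 Gy at 2.5 h comes from 1 library. The shares of 0.5 Gy rest on libraries that chose the genes and on 4 h replicates that differed. The difference between doses was not counted over all genes, so nothing is read from it. The 4 known targets gave 52.9% to 86.5% at 0.5 Gy and 35.2% to 65.8% at 0.2 Gy.

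At 0.2 Gy the 2.5 h library was above both early ones for 8 of the 10 genes, all but Myod1 and Lhx3, against 36.4% of all genes, and below both late ones for 8 of them, all but Fam167a and Lctl, against 33.2% of all genes. Between 4 and 6 h the genes did not all move in the same direction at either dose. At 0.5 Gy the 6 h library was above both 4 h libraries for some, such as D630023F18Rik, but not for Myod1, Ccdc88b and 9930012K11Rik. At 0.2 Gy the 6 h library was below the 4 h one for 7 genes, against 49.8% of all genes. In the 5 libraries of 4 and 6 h none of the 10 genes had an unadjusted p under 0.05, which 1.57% of all genes had with a higher and 1.65% with a lower level, and the 10 had log2 fold changes from -0.15 for Ccdc88b to 0.64 for D630023F18Rik (SE 0.56). None of 24401 genes was called by edgeR there (785 had an unadjusted p under 0.05), and DESeq2 called 34, none of them one of the 10. Of the 6 red blood cell markers 4 were lower at 6 h at an unadjusted p under 0.05.

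**Figure D4:**
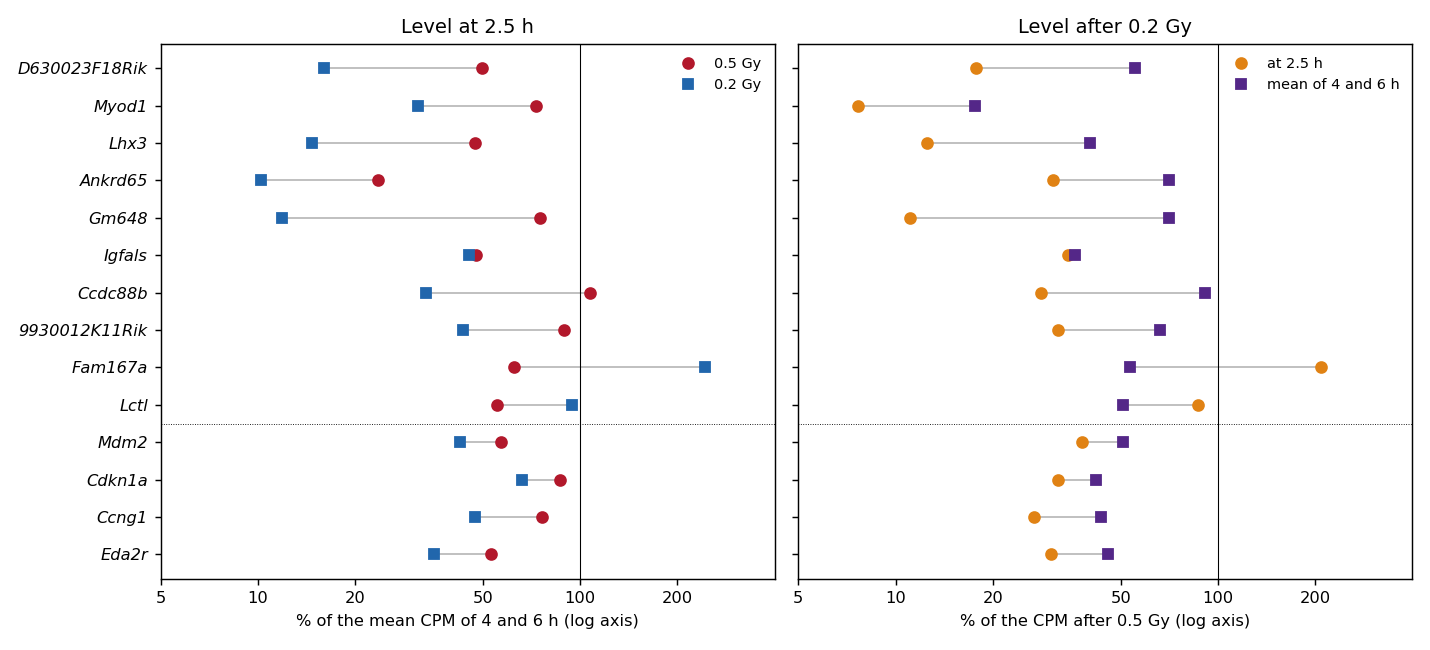
Left, CPM at 2.5 h as a percentage of the mean CPM of 4 and 6 h, at 0.5 Gy (red circles) and 0.2 Gy (blue squares). Right, CPM after 0.2 Gy as a percentage of that after 0.5 Gy, at 2.5 h (orange circles) and for the mean of 4 and 6 h (purple squares); both axes are log axes, the vertical line is 100%, and the 4 known targets stand under the dotted line. Fam167a is the gene past 100% at 2.5 h on both sides, at 243% and 208%.

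Set side by side at the same times, the levels after 0.2 Gy were mostly under those after 0.5 Gy. At 2.5 h the level after 0.2 Gy was below that after 0.5 Gy for 9 of the 10 genes, all but Fam167a, and at 6 h for 10 of 10, while 50.9% of all genes were below at each of these times. The genes were chosen for high late levels at 0.5 Gy, which by itself favours a lower level at 0.2 Gy, so nothing is read from these counts or from the ratios that follow. At 2.5 h the genes stood at 7.63% (Myod1) to 208% (Fam167a) of their level after 0.5 Gy, with a median of 29.5%. For the mean of 4 and 6 h the range was 17.6% (Myod1) to 91.0% (Ccdc88b), with a median of 54.2%, and the known targets stood at 41.8% to 50.8%. With 1 library per time at 0.2 Gy and a generation of its own, no test of dose was made on these levels.

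The 4 h replicates of 0.5 Gy set the error of these ratios. Replicate 2 was above replicate 1 for 9 of the 10 genes, all but Igfals, against 49.5% of all genes, with a median ratio of 2.53 and the highest, 10.6, in Myod1. For Mdm2, Cdkn1a, Ccng1 and Eda2r the ratio was between 1.22 and 2.10 in the same direction. The 4 h library of 0.2 Gy lay between the 4 h libraries of 0.5 Gy for 6 of the 10 genes, namely D630023F18Rik, Lhx3, Ankrd65, Gm648, Ccdc88b and 9930012K11Rik, against 35.0% of all genes, and below both for the other 4. It is a single library of another generation, and the pair of 0.5 Gy had served to choose the genes, so nothing on dose is read from this.

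The surroundings of the 10 genes were looked at next. The nearest protein-coding gene on each side of each of the 10 made 20 neighbours, of which 17 could be tested at 0.5 Gy and 19 at 0.2 Gy. None was called at 0.5 or at 0.2 Gy. At an unadjusted p under 0.05, Nacc2, next to Lhx3, was higher at 0.5 Gy (log2 fold change 0.53) and Gm10477, next to Gm648, was higher at 0.2 Gy. The medians were 0.13 and -0.08. Idh1, on the other side of D630023F18Rik from Cryga, had -0.08 and -0.11, and Kcnc1, next to Myod1, had -0.19 and -0.70.

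The known partners of the 10 genes were then looked at in lists. Of 21 genes of the muscle programme around MYOD1, 15 could be tested at 0.5 Gy, 20 at 0.2 Gy, 20 from 0 to 1 h and 16 from 4 to 6 h, and none of those tested was called, with medians of -0.09 at 0.5 Gy and -0.09 at 0.2 Gy, beside -0.02 and -0.03 for all genes. At 0.2 Gy 2 of them (Mef2a and Tcf12) were higher and 3 (Actc1, Ckm and Mymk) lower at an unadjusted p under 0.05. Skeletal muscle markers summed to 15.1 to 31.8 CPM in the early and 21.3 to 30.3 CPM in the late libraries of 0.5 Gy, and at 0.2 Gy to 32.8 to 39.7 CPM early and 23.9 to 28.1 CPM late, 3 of the 11 being below 1 CPM in every library. Their levels thus overlapped where Myod1 differed most, and their part in the Myod1 values of the early 0.2 Gy libraries was not tested.

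Of 18 genes of the LIM homeodomain family and the partners of LHX3, 12 could be tested at 0.5 Gy, 16 at 0.2 Gy and 14 in each of the other comparisons, and none of those tested was called, with medians of -0.05 at 0.5 Gy and -0.27 at 0.2 Gy. Pituitary markers summed to between 3.07 and 8.53 CPM in all libraries, 4 of the 8 being below 1 CPM in every library. In the insulin-like growth factor system around IGFALS (17 genes, of which 16 could be tested at 0.5 Gy, 17 at 0.2 Gy and 16 in each of the others) none was called, with medians of -0.24 at 0.5 Gy and 0.25 at 0.2 Gy. At an unadjusted p under 0.05, Igf1 (log2 fold change -0.54) and Igfbp3 (-1.17) were lower at 0.5 Gy and Igf1 (0.76) was higher at 0.2 Gy. The adjusted p of these values in edgeR's test was 0.275, 0.463 and 0.638. The klotho family and FGF receptors around LCTL (12 genes), the hook and CCDC88 family around CCDC88B (11 genes) and the SRC family kinases with the FAM167 genes (9 genes) had no called gene in any comparison, with 10, 11 and 8 genes tested at 0.5 Gy and 12, 11 and 9 at 0.2 Gy, and medians between -0.31 and 0.17 at the 2 doses. Of 20 p53 targets in the list used for scale, 8 were called at 0.5 Gy (Pmaip1, Cdkn1a, Eda2r, Phlda3, Mdm2, Sesn2, Ccng1 and Trp53inp1). None of the 20 was called at 0.2 Gy by edgeR, where 11 were higher and 1, Aen, was lower at an unadjusted p under 0.05, with a median log2 fold change of 1.04.

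The genes whose course was most like that of the 10 over all 13 libraries began with 3 known p53 targets. Each gene was compared, by Pearson's r of its log2 CPM across the 13 libraries, with the mean standardised profile of the 10 genes, and among the other genes of the 28162 compared Mdm2 came first (r = 0.974), followed by Eda2r (0.958), Cdkn1a (0.953), Fermt1, which encodes kindlin-1 (0.950), and Cldn4, a tight junction protein (0.942). The values describe a shared course only: the libraries share their doses and times, and the profile was built from genes chosen for rising at 0.5 Gy. Of the 10 genes themselves D630023F18Rik lay nearest to their mean (0.987), and Myod1 (0.851) and Fam167a (0.748) lay farthest from it. All but Fam167a were among the 100 genes nearest to it. Each of the 10 is part of the mean with which it is compared, so this closeness is built in and is no result of its own.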

How the data were processed

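The deposited tables hold estimated counts and TPM for 130740 transcripts per library. Per the labels and the paper's methods, the authors made them with Salmon on the Ensembl mouse transcriptome (GRCm38) from paired reads of libraries amplified with a SMARTER kit. The design text of the series calls the reads single-end, and this was not settled. A sequencing table of the study gives the read totals of the 1 and 4 h libraries of 0.5 Gy to the other generation than the labels do. Deposited tables of normalised counts and of the authors' comparisons (fold changes and p-values) were not used. The 10 genes and all lists were chosen with earlier results of these data known.

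Estimated counts were summed per gene with the GENCODE annotation of GRCm38 (402 transcripts had no gene), rounded, and scaled by TMM. Tests used edgeR 4.0.16 (glmQLFit, glmQLFTest, filterByExpr, R 4.3.3) with Benjamini-Hochberg adjustment over all genes tested, a call needing both an adjusted p below 0.05 and a log2 fold change beyond 1 in either direction. At 0.2 Gy, 11 libraries in 4 groups of dose by early or late were fitted; the steps from 0 to 1 h and from 4 to 6 h had dose as a term. TPM from the authors were summed per gene. The fits were tested on simulated data, where 200 genes were given a log2 fold change of 3, and 149 were recovered for 0.2 Gy, with 6 false calls, 189 for 1 h against 0 h, with 16 false calls, and 189 for 6 h against 4 h, with 17 false calls. Depth was 15709549 to 30430104 estimated reads per library, and intervals and ratios of reads cover counting error only. Alternatives were another scaling, no filter, DESeq2 1.42.0, protein-coding genes only, a replicate block, other sets of libraries, and leaving out each library.

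Named genes were the 10, their nearest protein-coding neighbours, listed genes called in a tested comparison, 4 known targets for scale, and the 5 genes most like the 10. Zwilch, Gm28845, Gm27196, Gm43301, Tmem140, Acp4, Mob3a, Ripk4, Gtse1, Traf4, Aen, Phlda3, Foxl2, Fst and the single genes of the lists given at an unadjusted p were named after their values were seen.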

Additional observations from a re-analysis of the deposited data

How the results depend on the processing

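At 0.2 Gy, 13 genes in all were called, and 1 of the 10 genes. Without a filter these counts were 32 and 3, with DESeq2 147 and 7, with protein-coding genes only 1 and 0, with the 4 libraries of 0.2 Gy alone 2 and 0, and with 2.5 h counted as late 26 and 0. D630023F18Rik kept its call under 6 of 20 alternatives and was higher under all 20, with adjusted p from 3.69e-09 (DESeq2) to 0.552. Myod1 turned to -0.20 with 2.5 h counted as late, to -0.10 without the 0 h library and to -0.68 without the 6 h library of 0.2 Gy, the lowest of its values with 1 library left out, the highest being 0.67 (without the 4 h library). Leaving out 1 library gave 1 (without 1 h of 0.2 Gy) to 18 (without 4 h replicate 1 of 0.5 Gy) genes and 0 to 2 of the 10 at 0.2 Gy, 0 to 0 genes from 0 to 1 h, 0 to 58 (without 6 h of 0.5 Gy) genes from 4 to 6 h, and 10 to 37 (without 4 h replicate 1) genes and 3 to 8 of the 10 at 0.5 Gy, where 29 and 9 were called; medians of the 10 then lay between 1.88 and 2.55, -0.01 and 0.35, -0.28 and 0.47, and 4.01 and 4.45. Elsewhere no filter gave 6 genes from 0 to 1 h and 58 at 0.5 Gy, and DESeq2 gave 15, 34 and 251 from 0 to 1 h, from 4 to 6 h and at 0.5 Gy. The cause of these shifts was not tested. There was 1 library per time at 0.2 Gy, and Myod1, Lhx3 and Ankrd65 had under 10 reads in each early library of 0.5 Gy.

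The replicate numbers stand for generations of samples. Deviations of same-numbered 0.5 Gy libraries from their time-point means correlated at 0.167, 0.0935 and 0.186 over 17528 genes, not above 0.1 for every pair, so the numbers were not taken as pairing. With the replicate block, 18 genes were called at 0.5 Gy, and D630023F18Rik kept its call at 0.2 Gy (adjusted p = 0.0276). Since the records disagree on the generation of the 1 and 4 h libraries, the numbers were also crossed there, and 7 genes and none of the 10 were called at 0.2 Gy.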
